A study of Mus musculus with 12 samples.

Results

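Expression of 9 genes of the MEF2-, SIX-, EYA- and PAX-families was followed in differentiating C2C12 cells. They were Mef2a, Mef2b, Mef2c, Mef2d, Six4, Eya1, Eya4, Pax3 and Pax7, taken by symbol from the Ensembl identifiers of the deposited expression table, and they are 9 of its 46983 genes. C2C12 is a mouse skeletal myoblast line whose cells fuse into multinucleated myotubes on differentiation. RNA of 2 cell types was sequenced on 0d and on 5d of differentiation. The WT cells were the group named after the PiggyBac vector PB-IP and labelled wild type. The PPARγ/+ cells carried the PPARγ coding sequence in that vector, delivered with a transposase and followed by puromycin selection, and neither the integration sites nor the number of clones was stated. Each of the 4 groups WT_0d, WT_5d, PPARγ/+_0d and PPARγ/+_5d had 3 libraries, 12 in all, and the series design text describes the PPARγ cells as inducible with uninduced cells as controls, which the sample labels do not repeat. The study calls the 3 libraries of a group biological replicates without saying how their cultures were kept apart, and the p-values measure the spread between them.

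MEF2 proteins bind AT-rich sites in muscle promoters and enhancers, where they act together with the basic helix-loop-helix factors MyoD and myogenin. SIX-family homeodomain proteins bind MEF3 sites, and EYA proteins, which are also phosphatases, join them as coactivators. PAX3 and PAX7 are paired-box factors of embryonic muscle progenitors and of satellite cells, the stem cells of adult muscle, and both stand upstream of the myogenic regulators. PPARγ is the nuclear receptor that directs fat cell formation and binds DNA with RXR at direct repeats of the AGGTCA hexamer.

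The DNA in front of the Mef2 genes is shown first because these genes carried most of the differences between the groups. Of the 9 genes, 7 matched a promoter entry of RefSeq on GRCm38.p6, with 11 start sites between them. Each of the 4 Mef2 sequences holds the 250 bases before a start site, overlapping no annotated exon, 5′ to 3′ on the strand of the gene. Capitals mark E-boxes (CANNTG), the AGGTCA hexamer or GC boxes (GGGCGG), each searched on both strands.
Mef2c, chr13:83503784-83504033, plus strand: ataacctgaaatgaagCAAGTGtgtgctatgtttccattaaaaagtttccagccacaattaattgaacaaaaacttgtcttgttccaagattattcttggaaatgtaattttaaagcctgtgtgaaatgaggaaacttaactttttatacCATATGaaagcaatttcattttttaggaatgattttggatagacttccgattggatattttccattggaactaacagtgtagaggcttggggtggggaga
Mef2c, chr13:83573357-83573606, plus strand: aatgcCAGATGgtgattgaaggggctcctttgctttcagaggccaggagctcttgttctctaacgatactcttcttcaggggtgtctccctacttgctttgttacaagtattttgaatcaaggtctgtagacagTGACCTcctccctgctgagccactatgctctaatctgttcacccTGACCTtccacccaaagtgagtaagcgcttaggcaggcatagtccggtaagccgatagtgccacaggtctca
Mef2a, chr7:67372859-67373108, minus strand: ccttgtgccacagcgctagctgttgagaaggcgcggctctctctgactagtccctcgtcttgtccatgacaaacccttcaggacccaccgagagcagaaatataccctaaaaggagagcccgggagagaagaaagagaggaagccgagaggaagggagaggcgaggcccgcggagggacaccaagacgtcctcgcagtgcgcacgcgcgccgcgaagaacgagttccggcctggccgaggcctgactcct
Mef2d, chr3:88142122-88142371, plus strand: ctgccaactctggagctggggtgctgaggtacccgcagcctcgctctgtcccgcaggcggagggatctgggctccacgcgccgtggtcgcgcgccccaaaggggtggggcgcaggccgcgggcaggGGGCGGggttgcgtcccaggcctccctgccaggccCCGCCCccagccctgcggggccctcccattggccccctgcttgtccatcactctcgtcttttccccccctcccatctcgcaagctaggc

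The first Mef2c window, in front of the most upstream of its 3 start sites, was AT-rich with 33.6% G and C and held 2 E-boxes. The second Mef2c window shown, in front of the most downstream start site, held 1 E-box and 2 AGGTCA hexamers on the minus strand, with 49.6% G and C. The window between them is not shown, since 80 of its bases lie in an annotated Mef2c exon. It held 1 AGGTCA hexamer and 1 GC box, with 44.8% G and C. In front of Mef2a no searched motif was found, and the window of Mef2d, with 73.2% G and C, held 2 GC boxes. Among 32851 mouse promoters of the same length, 66.2% held an E-box, 14.0% the AGGTCA hexamer and 32.7% a GC box. A MEF2 site was in none of the 11 windows of the 7 genes and in 2.92% of all promoters, and the direct repeat of AGGTCA with 1 base between its copies was in none of the 11 and in 0.0335% of all. A MEF3 site (TCAGGTTTC) was found in front of Six4 alone, on the opposite strand and 99 bases before a start site, and in 0.387% of all promoters. Unlike the Mef2 windows shown, this window lies largely within Six4 itself, with 211 of its 250 bases in an annotated exon and the match among them. Six4 has a further start site upstream. The stretch around the match is shown because SIX-family proteins bind this motif, with the match in capitals.
Six4, chr12:73113326-73113354, minus strand: tggcctggggGAAACCTGAtcggccagat

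The libraries held between 18581300 and 26073154 mapped fragments, a number recovered from the deposited values themselves. Expression was given as FPKM, the fragments on a gene scaled to its length and to the mapped fragments of the library. Pparg, the gene introduced, was at 6.53 ± 1.27 FPKM in WT_0d, 3.75 ± 0.760 in WT_5d, 39.6 ± 10.1 in PPARγ/+_0d and 58.9 ± 29.3 in PPARγ/+_5d (SD, n = 3 here and below), with no overlap between the cell types on either day. All 5 myoblast markers examined reached 1 FPKM in every library, but their summed FPKM was 74.6 to 106 in PPARγ/+_0d against 170 to 309 in WT_0d, and 323 to 380 in PPARγ/+_5d against 239 to 839 in WT_5d. The WT_5d libraries lay further apart (Pearson r 0.961 to 0.977 over genes) than those of the other groups (0.977 to 0.982). Their summed FPKM of 7 markers of differentiated muscle was 5987, 4333 and 1249 in replicates 1 to 3, against 1198 to 1417 in PPARγ/+_5d, so that WT_5d replicate 3 stood with the PPARγ/+ libraries. For the members and the gene lists, calls that differed without this library are therefore given beside those over all libraries, and without it 17.0% of all genes were called between days in WT cells, 2.72% between the cell types on 0d, 4.42% on 5d and 2.92% in the interaction. Since this library was set apart by its low muscle markers, calls without it, of muscle genes above all, are not independent of that choice. Tests between the cell types pooled the spread over all 4 groups. Without this library the differences on 0d therefore stayed the same, and only the spread behind their p-values changed. The summed FPKM of 5 fibroblast markers was 246 to 401 in WT_5d and 473 to 574 in PPARγ/+_5d against 9.36 to 41.4 on 0d. That of 10 adipocyte markers was 34.4, 41.9 and 97.9 in PPARγ/+_5d replicates 1 to 3, against at most 16.05 in the WT groups. Lep was at 0 throughout, and Pparg was also highest in PPARγ/+_5d replicate 3, at 92.7 FPKM. Markers of endothelial cells (at most 0.282) and Schwann cells (at most 0.621, with Sox10 at 0) were near 0. Those of osteoblasts summed to 5.22 to 8.73 with Ibsp at 0, and those of macrophages to 2.07 to 5.13. In each of these 2 lists only 1 of 5 genes reached 1 FPKM in all libraries of a group, which for macrophages was Cd68. The part of these other cell types in the results was not tested. In such bulk RNA fewer cells of a type and less RNA per cell cannot be told apart.

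Between days, the markers of differentiated muscle with the largest log2 changes were Myh3, an embryonic myosin (7.34), Mylpf, a fast myosin light chain (6.76), and Tnnt3 (6.73) in WT cells, and Myh3 (7.12), Tnni2 (7.11) and Mylpf (6.45) in PPARγ/+ cells. All 4 fibroblast markers tested rose in both, led by the matrix protein genes Dpt (5.35 and 6.54), Lum (4.98 and 5.11) and Dcn (4.25 and 6.37). Of the myoblast markers, Chrna1, an acetylcholine receptor subunit (1.95), and Myod1 (1.31) rose and Myf5 fell by 1.46 in WT cells, whereas Chrna1 (2.36), the intermediate filament gene Des (2.08) and the cadherin gene Cdh15 (1.97) led in PPARγ/+ cells. Of 7 adipocyte markers tested none was called between days in WT cells, and 5 rose in PPARγ/+ cells, led by Cfd (3.41), Adipoq (3.15) and Plin1 (2.69). Cfd had 1 to 2 fragments a library in PPARγ/+_0d, and 1 library held 211 of its 239 fragments in PPARγ/+_5d. Among all genes 8.94% were called higher on 5d in WT cells and 9.11% in PPARγ/+ cells. Between the cell types, the myoblast markers Cdh15 (log2 -2.15, adjusted p = 0.00877) and Myf5 (-1.58, adjusted p = 0.00165) were called lower in PPARγ/+ cells on 0d. The adipocyte markers Adipoq (3.94) and Fabp4 (3.91) were called higher there on 0d, as were Adipoq (7.22), Fabp4 (5.65), Plin1 (3.56), Cidec (2.53) and Lipe (1.64) on 5d. Without WT_5d replicate 3, Chrna1 (-1.03), Des (-1.41), Ckm (-1.92) and Tnni2 (-2.31) were also called lower in PPARγ/+ cells on 0d. These 0d differences were the same over all libraries, and only the pooled spread had changed. On 5d that fit called Cdh15 (-1.08), Chrna1 (-1.11), Des (-1.23), Ckm (-3.47), Tnni2 (-2.51) and Tnnt3 (-2.72) lower in PPARγ/+ cells. It also called Cfd (3.88) higher in PPARγ/+ cells on 5d, and Des (1.90) higher on 5d than on 0d in WT cells. The part of myoblast and adipocyte content in the differences between the cell types was not tested.

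The 9 genes spanned a wide range of levels, and Mef2d and Mef2a were the highest of them in every group. By mean FPKM in WT_0d they followed the order Mef2d, Mef2a, Eya4, Eya1, Six4, Pax7, Mef2c, Pax3 and Mef2b. The libraries of neighbours in that order did not overlap down to Pax3, and those of Pax3 and Mef2b did. In WT_5d Mef2c stood above Pax7 by mean, and the libraries of Mef2d and Mef2a overlapped, as did those of Eya1 and Six4, of Six4 and Mef2c and of Mef2c and Pax7. PPARγ/+ cells gave the order of WT_0d down to Mef2c on both days. Levels of different genes depend on the length used: the FPKM of Mef2a, Mef2b and Eya4 gave whole fragments at 6283, 1336 and 4192 bases, whereas the exons of these genes in the later annotation used here span 14681, 1404 and 9419 bases. Differences of one gene between libraries do not depend on it.

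**Figure D1:**
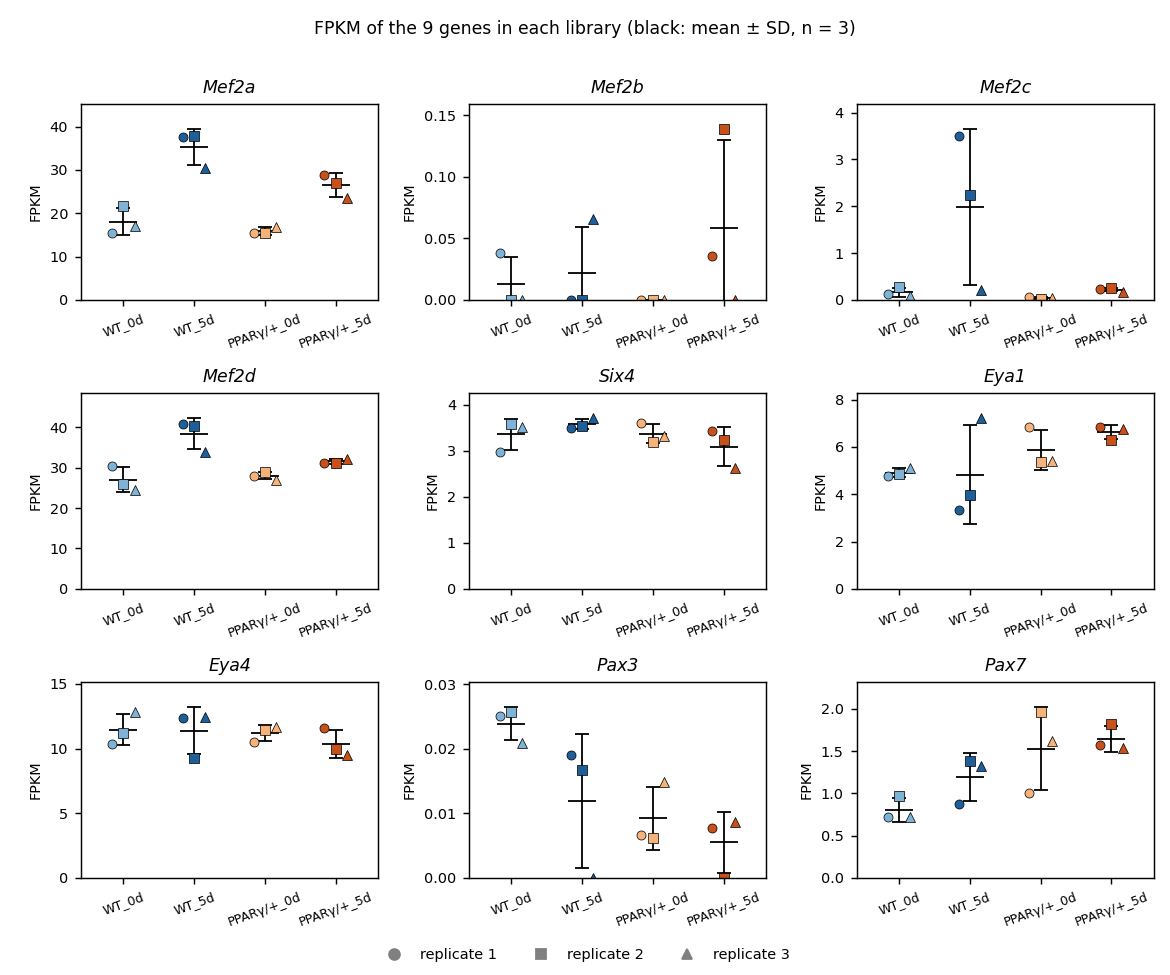
FPKM (y axis, starting at 0 and scaled for each gene) of the 9 genes in the 12 libraries, by group on the x axis. Symbols mark replicates 1 to 3, and black bars the mean and SD of 3 libraries. Mef2a, Mef2c and Mef2d were higher on 5d, WT_5d replicate 3 lay far below the other WT_5d libraries for Mef2c (0.212 against 2.23 and 3.50 FPKM) and above them for Eya1, Six4 lay between 2.63 and 3.70 FPKM, and Eya4 between 9.31 and 12.8.

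Mef2c (ENSMUSG00000005583, chromosome 13, 83504034 to 83667080, plus strand), the MEF2 gene needed for heart and skeletal muscle development, was the member that changed most. Its FPKM in replicates 1 to 3 was 0.131, 0.265 and 0.0742 in WT_0d and 3.50, 2.23 and 0.212 in WT_5d. In PPARγ/+_0d it was 0.0522, 0.0122 and 0.0379, and in PPARγ/+_5d 0.233, 0.246 and 0.178. The first pair of WT_5d libraries was thus far above every other library, with 1403 and 677 fragments, whereas WT_5d replicate 3, with 76, lay within the range of PPARγ/+_5d, which held 52 to 83. Every PPARγ/+_0d library, with 5 to 20 fragments, lay below every WT_0d library, with 27 to 105.

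Mef2c was called higher on 5d in both cell types. The mean FPKM was 12.7-fold higher in WT_5d than in WT_0d and 6.43-fold higher in PPARγ/+_5d than in PPARγ/+_0d. On the scale of log2(FPKM + 0.1), which understates the change of such a low gene, limma gave a log2 fold change of 2.49 in WT cells (SE 0.91, unadjusted p = 0.0316, adjusted p = 0.0747) and of 1.26 in PPARγ/+ cells (SE 0.23, unadjusted p = 0.00119, adjusted p = 0.00451). A call between days took an unadjusted p of at most 0.05 and a 2-fold change, and 8.94% of the 18023 genes tested were called higher in WT cells and 9.11% in PPARγ/+ cells. The libraries of the days overlapped in WT cells and did not in PPARγ/+ cells. Without WT_5d replicate 3 the change in WT cells was 3.57 with an adjusted p of 0.00289, and leaving out any other single WT library ended the call, at 1.80 to 2.78. The WT call also ended, with an unadjusted p above 0.05, with no filter on low genes (adjusted p = 0.183) and with limma-voom on recovered fragments (log2 3.07, adjusted p = 0.142). The PPARγ/+ call ended with a pseudocount of 1, where the change was under 2-fold (log2 0.24). It also ended with all 12 libraries in one fit, with an unadjusted p above 0.05 (adjusted p = 0.176).

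Between the cell types Mef2c was lower in PPARγ/+ cells on both days, but neither difference was called. A call here took an adjusted p of at most 0.05 and a 2-fold change, which 0.571% of genes passed as higher and 1.39% as lower on 0d, and 0.571% and 0.533% on 5d. The log2 difference, PPARγ/+ minus WT, was -0.88 on 0d (SE 0.71, adjusted p = 0.519) and -2.12 on 5d (SE 0.71, adjusted p = 0.180). The SE was pooled over all groups, so the wide spread of WT_5d enters the test on 0d as well. Without WT_5d replicate 3 the difference on 5d was -3.19 with an adjusted p of 0.000421 and was called. That library also had the least Mef2c of its group, so this call is not independent of leaving it out. The interaction of cell type and day for Mef2c was -1.24 (SE 1.0, adjusted p = 0.686) over all libraries and -2.31 (adjusted p = 0.0258) without that library. Of all genes 0.76% passed the interaction test over all libraries and 2.92% without it.

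Mef2a (ENSMUSG00000030557, chromosome 7, 67231163 to 67372858, minus strand), a broadly expressed MEF2 gene, was higher on 5d in both cell types by less than the 2-fold limit. Its FPKM was 15.4, 21.7 and 17.1 in WT_0d and 37.5, 37.7 and 30.5 in WT_5d. It was 15.4, 15.4 and 16.9 in PPARγ/+_0d and 28.9, 27.05 and 23.5 in PPARγ/+_5d. The days did not overlap in either cell type, and every PPARγ/+_5d library lay below every WT_5d library. The mean was 1.95-fold higher on 5d in WT cells (log2 0.97, SE 0.15, adjusted p = 0.00405), just short of the limit, and 1.67-fold in PPARγ/+ cells (log2 0.73, SE 0.09, adjusted p = 0.000674). It was past the limit in WT cells, at 1.07, without WT_5d replicate 3. On 5d the PPARγ/+ cells were lower by a log2 difference of -0.41 (unadjusted p = 0.00897, adjusted p = 0.161), which without that library was -0.51 with an adjusted p of 0.0314. Its exons share 302 bases with Lysmd4 on the opposite strand.

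Mef2d (ENSMUSG00000001419, chromosome 3, 88142372 to 88172086, plus strand), whose muscle-specific splice form acts late in differentiation, had the smallest change with day of the 3 expressed MEF2 genes. Its FPKM was 30.5, 26.0 and 24.4 in WT_0d and 40.8, 40.2 and 33.9 in WT_5d. It was 28.0, 28.8 and 27.1 in PPARγ/+_0d and 31.2, 31.2 and 32.2 in PPARγ/+_5d. The days did not overlap in either cell type, and on 5d all PPARγ/+ libraries lay below all WT libraries. The log2 change was 0.51 in WT cells (SE 0.12, adjusted p = 0.0162) and 0.17 in PPARγ/+ cells (SE 0.05, adjusted p = 0.0220), both under 2-fold. The changes differed by -0.33 (SE 0.13, unadjusted p = 0.0252, adjusted p = 0.323). On 5d the cell types differed by -0.28 (adjusted p = 0.175), or by -0.36 with an adjusted p of 0.0207 without WT_5d replicate 3. Its exons share 531 bases with 1700113A16Rik on the opposite strand, and since no source used here states a stranded count, reads of the pair cannot be told apart. FPKM is summed over transcripts, so splice forms were not measured.

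Mef2b (ENSMUSG00000079033, chromosome 8, 70139711 to 70167488, plus strand), known mainly from B lymphocytes, was at the limit of detection. It had 1 fragment in WT_0d, 2 in WT_5d, 0 in PPARγ/+_0d and 5 in PPARγ/+_5d, summed over 3 libraries, and its highest library was at 0.139 FPKM. Its exons share 62 bases with Borcs8 on the same strand. With at most 4 fragments in a library it did not pass the filter of 0.1 FPKM in 3 libraries, and differences were not detectable at this depth.

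The summed FPKM of the MEF2 family and the ratio of Mef2a to Mef2d were higher in every 5d library than in the 0d libraries of the same cell type. The summed FPKM of the 4 genes was 45.2 ± 3.24 in WT_0d and 75.6 ± 9.49 in WT_5d, and 43.9 ± 0.445 in PPARγ/+_0d and 58.3 ± 2.22 in PPARγ/+_5d. The days did not overlap in either cell type, nor did the cell types on 5d. Each of these 3 comparisons gave p = 0.1 in a two-sided exact permutation test, the smallest p that 3 libraries against 3 allow, and 0.178 after adjustment over 16 such tests. The ratio of Mef2a to Mef2d FPKM was 0.680 ± 0.164 in WT_0d, 0.918 ± 0.0197 in WT_5d, 0.570 ± 0.0480 in PPARγ/+_0d and 0.841 ± 0.101 in PPARγ/+_5d, again with exact p = 0.1 between days in both cell types.

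**Figure D2:**
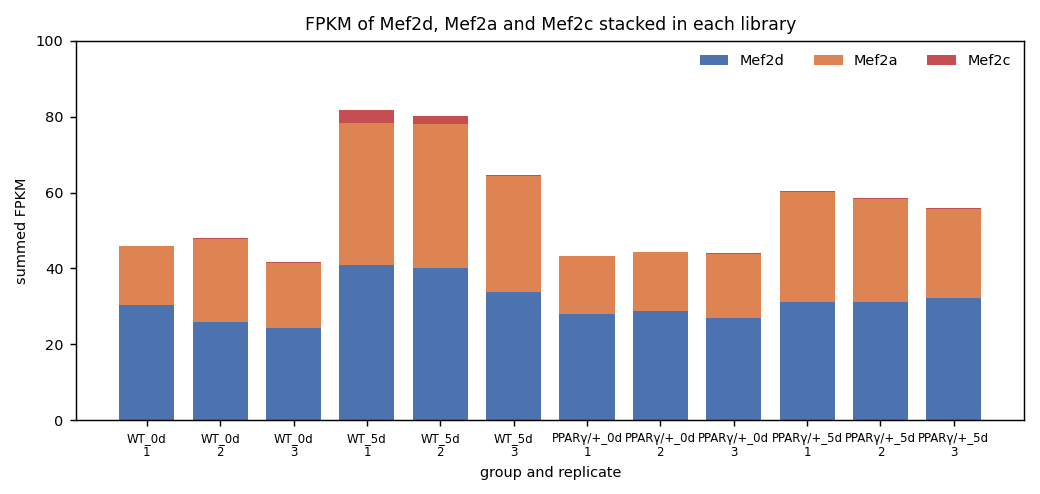
Stacked FPKM of Mef2d, Mef2a and Mef2c (y axis, from 0) in each of the 12 libraries (x axis, group and replicate). Mef2b, at most 0.139 FPKM, is not drawn. The sums of the 4 genes lay between 41.6 and 48.0 in WT_0d, 64.7 and 81.8 in WT_5d, 43.4 and 44.3 in PPARγ/+_0d and 55.9 and 60.3 in PPARγ/+_5d, and Mef2c is visible only in WT_5d replicates 1 and 2.

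Mef2c made up little of the family in any library. Its share of the summed FPKM was 4.28%, 2.78% and 0.328% in WT_5d, 0.318% to 0.419% in PPARγ/+_5d, 0.178% to 0.552% in WT_0d and 0.0276% to 0.120% in PPARγ/+_0d. The share did not overlap between days in PPARγ/+ cells or between cell types on 0d (exact p = 0.1 each), and it overlapped between days in WT cells (exact p = 0.2) and between cell types on 5d (exact p = 0.3), with adjusted values of 0.178 to 0.369 over the 16 tests. The exonic length behind the FPKM of Mef2c was 15715 bases, the longest of the 4 genes.

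**Figure D3:**
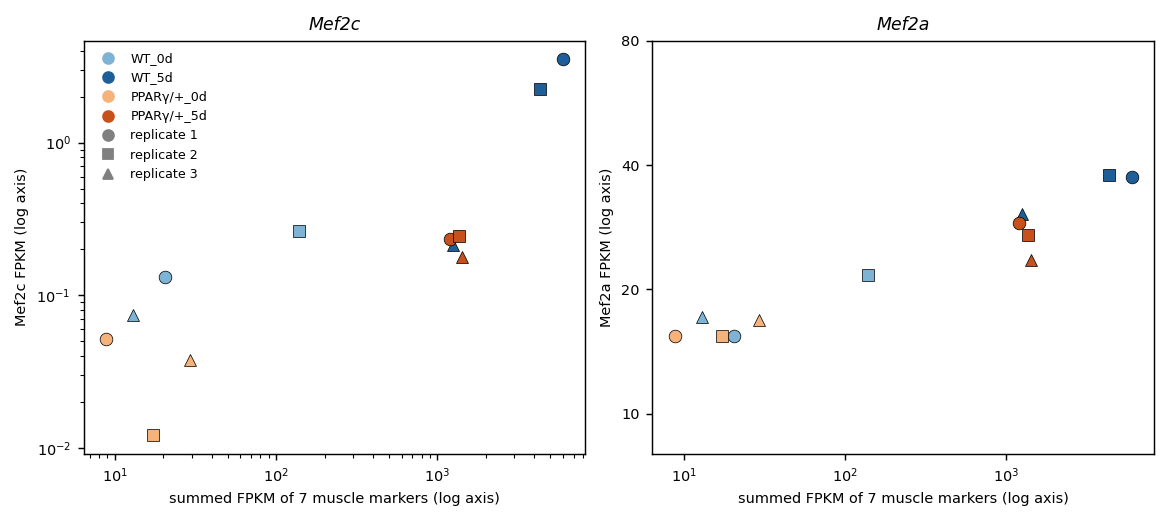
FPKM of Mef2c (left) and Mef2a (right) against the summed FPKM of 7 markers of differentiated muscle (Myog, Ckm, Acta1, Tnnt3, Tnni2, Mylpf and Myh3) in each library, on log axes. Colours mark the groups and symbols the replicates. WT_5d replicate 3, at 1249 on the x axis, lies among the PPARγ/+_5d libraries, and WT_0d replicate 2, at 138, has the highest Mef2c and Mef2a of the 0d libraries.

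On each day the library with the highest sum of muscle markers also had the most Mef2c, but the order did not hold throughout. On 0d, WT replicate 2 had the highest marker sum, 138 FPKM against 8.86 to 29.3 in the other 5 libraries, and also the highest Mef2c (0.265 FPKM) and Mef2a (21.7 FPKM). On 5d, the WT libraries with 5987 and 4333 FPKM of markers had 3.50 and 2.23 FPKM of Mef2c, and the 4 libraries with 1198 to 1417 FPKM of markers had 0.178 to 0.246. Between PPARγ/+_0d and WT_0d the order did not hold, since PPARγ/+_0d replicate 3 had more of the markers (29.3 FPKM) and less Mef2c (0.0379 FPKM) than WT_0d replicate 1 (20.3 and 0.131 FPKM). Nor did it hold within the PPARγ/+ groups. In PPARγ/+_0d the library with the least of the markers (8.86 FPKM) had the most Mef2c (0.0522 FPKM). In PPARγ/+_5d the library with the most of the markers (1417 FPKM) had the least Mef2c (0.178 FPKM). The part of the extent of differentiation in these differences was not tested.

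Of 17 genes known as direct MEF2 targets in muscle, 16 were tested. On 5d 15 were called higher in WT cells and 14 in PPARγ/+ cells, beside 8.94% and 9.11% of all genes. The median log2 change was 5.12 and 4.02 against -0.08 and -0.10 over all genes. The largest changes in WT cells were those of Mb, the oxygen carrier myoglobin (log2 6.64), Hrc, a calcium-binding protein of the sarcoplasmic reticulum (6.45), and Ckm, muscle creatine kinase (5.94). In PPARγ/+ cells they were those of Mb (6.16), Myog, the differentiation factor myogenin (5.90), and Hrc (5.84). Between the cell types the median was -0.60 on 0d and -1.29 on 5d against 0.02 over all genes on both days. On 0d Xirp1, an actin-binding protein (log2 -2.13, adjusted p = 0.0434), and Smyd1, a muscle histone methyltransferase (-1.93, adjusted p = 0.0343), were called lower in PPARγ/+ cells. On 5d none of the 16 was called over all libraries, with Ckm at -2.77 (adjusted p = 0.0662). Without WT_5d replicate 3, 10 of the 16 were called lower in PPARγ/+ cells on 5d, among them Ckm (-3.47, adjusted p = 0.00534) and Hspb7, a small heat shock protein gene (-3.07, adjusted p = 0.000116), with a median of -1.97, and Hspb7 (-2.49) and Myoz2 (-2.29) were called in the interaction. In that fit Ckm (-1.92) joined Xirp1 and Smyd1 on 0d, and the count between days in WT cells was again 15. The targets and the muscle markers share Myog and Ckm, so the lists are not independent. WT_5d replicate 3 was set apart by its low muscle markers, so the counts without it are not independent of that choice either. Without that library 4.42% of all genes were called between the cell types on 5d.

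Of 19 genes whose proteins act on MEF2, such as class IIa histone deacetylases, their kinases and calcineurin, 17 were tested. On 5d 1 was called higher in WT cells and 2 in PPARγ/+ cells, beside 8.94% and 9.11% of all genes, and none lower, and the medians were -0.07 and -0.16. Sik1, a kinase that phosphorylates class IIa histone deacetylases and so frees MEF2, rose by 1.74 on the log2 scale in WT cells (adjusted p = 0.00130) and by 1.38 in PPARγ/+ cells (adjusted p = 0.000207). On 5d Sik1 was lower in PPARγ/+ cells (log2 -1.05, adjusted p = 0.0132), the only listed regulator called between the cell types over all libraries. Without WT_5d replicate 3 it was at -1.12, and Hdac9 (-1.13) and Vgll2, a cofactor of muscle transcription factors (-1.86), were called lower in PPARγ/+ cells on 0d. Hdac9, a deacetylase that represses MEF2, rose in PPARγ/+ cells (log2 1.10, adjusted p = 0.00528) and gave 0.22 in WT cells (adjusted p = 0.723), and the difference between the cell types in that change was 0.87 with an adjusted p of 0.549.

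Six4 (ENSMUSG00000034460, chromosome 12, 73099609 to 73113456, minus strand), a homeodomain factor of muscle formation, was called in no comparison. Its FPKM was 2.98, 3.58 and 3.51 in WT_0d and 3.49, 3.54 and 3.70 in WT_5d. It was 3.59, 3.20 and 3.33 in PPARγ/+_0d and 3.43, 3.23 and 2.63 in PPARγ/+_5d. The log2 change was 0.09 in WT cells (95% interval -0.18 to 0.37, adjusted p = 0.551) and -0.13 in PPARγ/+ cells (-0.41 to 0.16, adjusted p = 0.417), so that these intervals hold no 2-fold change. The cell types differed by 0.01 on 0d and by -0.21 on 5d (adjusted p = 0.414), although every PPARγ/+_5d library lay below every WT_5d library.

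Eya1 (ENSMUSG00000025932, chromosome 1, 14168954 to 14310235, minus strand), a SIX-family coactivator, was called in no comparison. Its FPKM was 4.77, 4.85 and 5.11 in WT_0d and 3.31, 3.96 and 7.20 in WT_5d. It was 6.82, 5.36 and 5.38 in PPARγ/+_0d and 6.86, 6.30 and 6.75 in PPARγ/+_5d. WT_5d replicate 3 was the highest of all 12 libraries, whereas the other WT_5d libraries were the lowest. On 0d every PPARγ/+ library lay above every WT library, with a log2 difference of 0.24 (adjusted p = 0.581). On 5d the difference was 0.53 (SE 0.22, unadjusted p = 0.0351, adjusted p = 0.289) over all libraries and 0.85 (adjusted p = 0.00189) without WT_5d replicate 3. The change from 0d to 5d was -0.10 in WT cells (adjusted p = 0.80), or -0.43 (adjusted p = 0.0354) without that library, and 0.19 in PPARγ/+ cells (adjusted p = 0.203).

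Eya4 (ENSMUSG00000010461, chromosome 10, 23102963 to 23350786, minus strand), another EYA coactivator, was called in no comparison either. Its FPKM was 10.4, 11.2 and 12.8 in WT_0d and 12.4, 9.31 and 12.5 in WT_5d. It was 10.5, 11.4 and 11.7 in PPARγ/+_0d and 11.6, 9.96 and 9.53 in PPARγ/+_5d. All groups overlapped. The log2 change was -0.02 in WT cells (95% interval -0.36 to 0.33) and -0.12 in PPARγ/+ cells (-0.33 to 0.09). Its level per length was above that of Eya1 in every library, with a mean ratio of 2.33 ± 0.166 in WT_0d, 2.61 ± 1.03 in WT_5d, 1.95 ± 0.350 in PPARγ/+_0d and 1.56 ± 0.140 in PPARγ/+_5d. The cell types did not overlap in this ratio on 5d or on 0d (exact p = 0.1 each, the smallest possible, and 0.178 adjusted over the 16 tests).

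Of 16 relatives of these genes (other SIX-, EYA- and PAX-family genes and the DACH cofactors), 5 were expressed enough to be tested and only Six5 was called. Among all genes 16.5% were called between days in WT cells and 15.2% in PPARγ/+ cells. Six5, a SIX-family gene next to the myotonic dystrophy kinase gene, rose by 1.01 on the log2 scale in WT cells (adjusted p = 0.00568), or by 0.91 and so short of 2-fold without WT_5d replicate 3, and by 1.12 in PPARγ/+ cells (adjusted p = 9.63e-05). Eya3, a further EYA coactivator, gave log2 changes of -0.44 (adjusted p = 0.0153) and -0.49 (adjusted p = 0.000912), under the 2-fold limit. Six2, Eya2, Pax1, Pax2 and Pax4 were listed at 0 in all 12 libraries. None of the 5 tested relatives was called between the cell types.

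Of 10 fast-fibre and glycolytic genes linked to SIX-family and EYA proteins, 9 were tested. On 5d 7 were called higher in WT cells and 5 in PPARγ/+ cells, beside 8.94% and 9.11% of all genes. The median log2 changes were 3.13 and 1.22, against -0.08 and -0.10 over all genes. Eno3, the muscle enolase, was at 0.13 in WT cells (adjusted p = 0.795) and at -0.64 in PPARγ/+ cells (adjusted p = 0.000871), lower by less than 2-fold. The largest in WT cells were those of the fast troponins Tnnt3 (6.73) and Tnni2 (6.62) and of the myosin light chain Myl1 (6.03). In PPARγ/+ cells Tnni2 (7.11), Myl1 (6.09) and the fast calcium pump Atp2a1 (5.98) led. Over all libraries none was called between the cell types, where the median was -0.29 on 0d and -1.52 on 5d. Without WT_5d replicate 3, 8 of the 9 were called lower in PPARγ/+ cells on 5d, from Pfkm at -1.20 to Tnnt3 at -2.72, and 2 on 0d, Atp2a1 (-2.24) and Tnni2 (-2.31), while Eno3 (-1.17), Pfkm (-1.32) and Pgam2 (-2.43) were called in the interaction. Tnnt3 and Tnni2 are also in the list of muscle markers by which WT_5d replicate 3 was set apart. The counts without it are therefore not independent of that choice, and 4.42% of all genes were called on 5d without it.

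Pax7 (ENSMUSG00000028736, chromosome 4, 139737062 to 139833528, minus strand), the factor of satellite cells, was low but measured in every library, and it was higher in PPARγ/+ cells. Its FPKM was 0.721, 0.974 and 0.722 in WT_0d and 0.871, 1.39 and 1.33 in WT_5d. It was 1.0, 1.96 and 1.63 in PPARγ/+_0d and 1.57, 1.83 and 1.54 in PPARγ/+_5d, with 82 to 300 fragments in a library over all groups. The PPARγ/+ libraries lay above the WT libraries on both days, and the days overlapped in both cell types. The mean was 1.90-fold higher in PPARγ/+ cells on 0d (log2 0.81, SE 0.24, unadjusted p = 0.00662, adjusted p = 0.0799) and 1.38-fold on 5d (log2 0.45, SE 0.24, adjusted p = 0.412), and neither passed the test. Without PPARγ/+_0d replicate 1, the lowest of its group, the difference on 0d was 1.07 with an adjusted p of 0.0241 and was called. Over all alternatives the adjusted p on 0d was between 0.0206 and 0.259. The change from 0d to 5d was 0.50 in WT cells (95% interval -0.07 to 1.07, adjusted p = 0.144) and 0.14 in PPARγ/+ cells (-0.43 to 0.71, adjusted p = 0.654).

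Pax3 (ENSMUSG00000004872, chromosome 1, 78101267 to 78197134, minus strand), the paralog that acts in the embryonic myotome and in migrating limb progenitors, was near the floor of 3 fragments a library. It had 3, 4 and 3 fragments in WT_0d, 3, 2 and 0 in WT_5d, 1, 1 and 2 in PPARγ/+_0d and 1, 0 and 1 in PPARγ/+_5d. Its highest library was at 0.0256 FPKM, it did not pass the filter, and no fold change is given.

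Of 9 genes linked to PAX3 and PAX7 in muscle progenitors, all tested, 2 were called higher on 5d and 1 lower in WT cells, with 6 not called, and 3 higher and 1 lower in PPARγ/+ cells, with 5 not called, beside 16.5% and 15.2% of all genes called in either direction. In WT cells Fgfr4, a fibroblast growth factor receptor (log2 2.35), and Myod1, the gene of MyoD (1.31), rose, and Myf5, an early myogenic factor, fell by 1.46 on the log2 scale. In PPARγ/+ cells Fgfr4 (2.72), Myod1 (1.60) and Itm2a, a membrane protein gene (1.34), rose, and Id3, an inhibitor of basic helix-loop-helix factors, fell by 1.07. Itm2a was low, with 3 to 4 fragments a library in PPARγ/+_0d and 9 to 15 in PPARγ/+_5d. Myf5 was lower in PPARγ/+ cells on 0d (log2 -1.58, adjusted p = 0.00165), and its change with day differed between the cell types by 2.20 (adjusted p = 0.00844), the only listed gene of any of these lists called in the interaction over all libraries. Without WT_5d replicate 3, Id3 (-1.43) and Met, the receptor of hepatocyte growth factor (-1.12), were also called lower on 5d in WT cells. In that fit Id3 was called higher in PPARγ/+ cells on 0d (1.04) and 5d (1.40), and Met was called in the interaction (0.98). Lbx1, a homeobox gene of migrating progenitors, was called lower in PPARγ/+ cells on 5d (-1.50), but near the floor. Over all libraries Lbx1 had 0 to 1 fragments a library in PPARγ/+_5d and 1 to 18 in WT_5d.

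**Figure D4:**
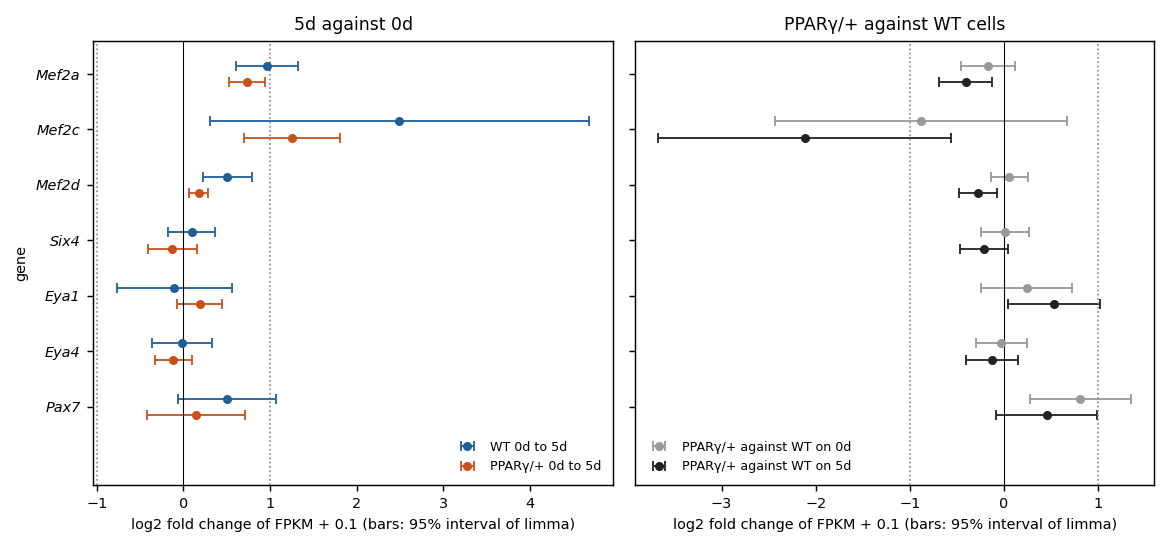
Log2 fold change (x axis, on log2(FPKM + 0.1)) of the 7 tested genes (y axis), with 95% intervals of limma, for 5d against 0d (left) and for PPARγ/+ against WT cells (right). Dotted lines mark 2-fold changes. The intervals of Mef2a, Mef2c and Mef2d on the left exclude 0 in both cell types, and those of Six4 and Eya4 include 0 in all comparisons.

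Counted over the members, 7 of the 9 were tested. Between days 1 of the 7 was called, Mef2c, in each cell type, beside 16.5% of all genes called in either direction in WT cells and 15.2% in PPARγ/+ cells. At an adjusted p of at most 0.05 without the fold limit, the counts were 2 in WT cells and 3 in PPARγ/+ cells, beside 37.1% and 47.5% of all genes. The libraries of the days did not overlap, with 5d higher, for 2 members in WT cells and 3 in PPARγ/+ cells, beside 20.2% and 23.8% of all genes. Between the cell types limma called 0 of 7 on 0d and 0 of 7 on 5d, with 1 and 4 at an unadjusted p under 0.05, beside 1.96% and 1.1% of all genes called and 21.3% and 15.3% at that unadjusted p. On 5d libraries did not overlap for 1 member that was higher and 3 that were lower in PPARγ/+ cells, beside 10.2% and 8.31% of all genes, and on 0d for 2 and 1, beside 13.7% and 13.1%. The interaction called 0 of 7, with 1 at an unadjusted p under 0.05, beside 0.76% of all genes called and 12% at that unadjusted p. Fitted on the recovered fragments, limma-voom gave 0 calls in WT cells and 1, Mef2c, in PPARγ/+ cells (log2 2.87, adjusted p = 0.000161), and 0 in the other comparisons.

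The genes whose log2(FPKM + 0.1) ran most like that of each member over the 12 libraries were taken among 11681 genes with a mean of at least 1 FPKM. These Pearson r describe libraries that share 4 groups and a common set of days, and they carry no test. For Mef2a they were Cdon, a cell surface receptor that promotes myogenesis (r 0.986), Myh1, a fast myosin heavy chain (0.986), and St3gal5, a sialyltransferase (0.984). For Mef2c they were Ptp4a2 (0.986), Usp13 (0.981) and Wfs1 (0.978), which fell to 0.892, 0.884 and 0.936 without WT_5d replicates 1 and 2. For Mef2d they were Svbp (0.98), the cell cycle inhibitor Cdkn1a (0.964) and Cox14 (0.957), which fell to 0.946, 0.896 and 0.930 without the same libraries.

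The other members had looser neighbours, apart from Eya1 and Pax7. For Eya1 they were Osbpl1a (0.955), the ribosomal protein gene Rps27 (0.950) and the Wnt pathway factor Tcf7l2 (0.938). Without WT_5d replicates 1 and 2 these were 0.870, 0.923 and 0.908. For Pax7 they were Rspo2, a Wnt pathway agonist (0.965), Tcf7l1 (0.933) and Tap2 (0.931), or 0.937, 0.876 and 0.905 without WT_0d replicates 1 and 3. For Six4 they were Slc38a6 (0.883), Gm11874 (0.807) and Kirrel3 (0.787), or 0.737, 0.769 and 0.501 without the 2 libraries farthest from the median of Six4. For Eya4 they were Inhba, a subunit of activin A (0.788), Pikfyve (0.761) and Mir7-1 (0.755). Without the 2 libraries farthest from the median of Eya4 these were 0.615, 0.596 and 0.822. Among the members themselves, the 3 expressed MEF2 genes ran together (r 0.820 to 0.856), and the lowest r was that of Mef2c with Eya1 (-0.68).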

How the data were processed

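RNA of 12 C2C12 libraries was sequenced as read pairs. Per the study's methods, reads were trimmed (Trim Galore), mapped to GRCm38 (STAR) and counted for Ensembl genes (HTSeq) by the authors, who used DESeq2 for their own tests. The submitters' processing notes name STAR and mm9 instead. The authors deposited FPKM for 46983 genes, and a log2 copy of that table that was not used. Groups followed the sample titles. Of the 27138 genes above 0, 78.6% had FPKM that were whole fragments (within 0.02) in all libraries at the annotated length. This gave the depth of 18581300 to 26073154 mapped fragments, and a floor of 3 fragments was chosen. That floor and that depth cover counting error only. Of the identifiers, 46488 matched a symbol, and positions are those of GRCm38.

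limma (version 3.58.1, with a trend, in R 4.3.3) was fitted on log2(FPKM + 0.1) of the 18023 genes with at least 0.1 FPKM in 3 libraries. Days were compared within each cell type on its 6 libraries, and cell types and the interaction over all 12. Adjusted p-values are Benjamini-Hochberg values of limma over all genes tested. Calls between days took an unadjusted p of at most 0.05 and 2-fold, calls between cell types an adjusted p of at most 0.05 and 2-fold, and the interaction an adjusted p of at most 0.05. The scripts were tested on simulated data. Ratios and shares were compared by exact permutation tests. Tables were handled with Python 3.11.15 and pandas 2.3.3.

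The members, gene lists and tests were chosen with earlier results of these data known, and the lists were written from general knowledge. Named were all 9 members, Pparg, the 3 genes most like each member that reached 1 FPKM, the 3 called genes of each list with the largest change between days, and every listed gene called between cell types or in the interaction. Other relatives, marker genes and listed genes were named after their values were seen. The values of 1 listed relative are not reported here. Alternatives changed the pseudocount, filter, scaling, spread model, threshold or library set, and limma-voom and the list counts without WT_5d replicate 3 were added after the data were seen.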

Additional observations from a re-analysis of the deposited data

How the results depend on the processing

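Of 660 results of members under 23 alternatives, 620 kept their direction and side of the threshold, 10 lost a call, 10 gained one and 20 changed sign. The count of called members between days, 1 in both cell types, became 0 in WT cells with no filter, with a filter at 1 FPKM (which removes Mef2c), with an adjusted p and with limma-voom, and 2 with median-ratio scaling or quantile normalization, where Mef2a passed 2-fold. It ranged from 0 to 2 when single libraries were left out. In PPARγ/+ cells it became 0 with a pseudocount of 1 (Mef2c at 0.24), with a filter at 1 FPKM and with all 12 libraries in one fit. Between the cell types the count of 0 ranged from 0 to 1 without single libraries on both days, and with array weights it was 1 on 5d, Mef2c (-2.82, adjusted p = 5.25e-05). In the interaction it was 2 with array weights, Mef2c (-1.93) and Mef2d (-0.43), and 0 to 1 without single libraries. The cause of these changes was not tested where the construction does not show it.

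Median-ratio scaling moved the median of all genes from -0.08 to 0.03 in WT cells and from -0.10 to 0.02 in PPARγ/+ cells. With it the small differences of Eya1 (0.024) and Eya4 (0.11) in WT cells, of Six4 (0.00090) and Eya4 (0.015) in PPARγ/+ cells and of Six4 between cell types on 0d (-0.028) changed sign. Quantile normalization did so for Eya1 (0.011) and Eya4 (0.11) in WT cells and Eya4 (0.026) in PPARγ/+ cells, and array weights for Six4 on 0d (-0.034), Eya4 on 5d (0.12) and Eya4 in the interaction (0.16). Without single libraries the sign changed within -0.43 to 0.12 for Eya1 and -0.090 to 0.12 for Eya4 in WT cells, -0.12 to 0.34 for Pax7 in PPARγ/+ cells, and -0.011 to 0.15 for Mef2d, -0.071 to 0.057 for Six4 and -0.098 to 0.052 for Eya4 on 0d.

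Same-numbered libraries correlated weakly in their deviations (r -0.07 to 0.08), within the range of differently numbered ones (-0.12 to 0.10). Such r from 3 libraries a group cannot show whether the numbers pair the samples. The fit with the replicate block changed 0 of 35 results of members, and Mef2c kept 2.49 in WT cells. Across days of PPARγ/+ cells every library deviated most with its own number, and in the other comparisons not all did. At this depth Mef2b and Pax3 could not be compared.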
